A study of Homo sapiens with 18 samples.

Results

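The 10 genes described here build, activate or restrain the transcription factor NF-kB. They were followed on all 18 arrays of A549 cells exposed to silica nanoparticles (NPs) or left without. Among the genes are the subunit genes NFKB1, NFKB2 and RELB and the IkB family genes NFKBIA, NFKBIE and BCL3. The others are the TNFAIP3 and TNIP1 genes of the A20 complex, BIRC3 and the kinase gene MAP3K14. The members were all non-control probes that carry 1 of these 10 gene names in the scanner files, which gave 12 of the 41000 probes and 10 of the 30484 gene names on the array. All 12 were among the 28665 probes left after the filter on missing values. TNFAIP3 and TNIP1 have 2 probes each, and the brighter one over the 18 arrays is called the leading probe. In 3 h cultures 7 of the 12 probes passed the test after SM30 NPs, where 7.49% of all probes tested did. None did after AS30 NPs at 3 h or 22 h, against 2.52% and 3.58% of all probes. For the difference between the 2 particles at 3 h no member was called either.

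A549 is an established line from a human lung adenocarcinoma with features of alveolar epithelium, and Ludox SM30 and AS30 are colloidal amorphous silica NPs with labelled diameters of 9 nm and 18 nm. Cells were exposed for 2 h without serum at a single concentration and recovered in complete medium, for 3 h after SM30 NPs (SM30 3 h), for 3 h after AS30 NPs (AS30 3 h) or for 22 h after AS30 NPs (AS30 22 h). Each of these groups has its own controls, which went through the same medium changes without NPs (SM30 controls, AS30 3 h controls, AS30 22 h controls). Every group holds 3 biological replicates lettered A, B and C, and the labels do not say whether a letter marks cultures grown together. The share of non-control spots well above background ran from 51.9% to 72.4% per array. All 5 epithelial markers and all 4 enzymes typical of A549 cells were well above background on every array. So were CD14, CD3E, CD68 and COL1A1 among markers of other cell types. Others, among them PTPRC, MS4A1, COL1A2, PDGFRB and PECAM1, were on none. Between these lay VWF, on 7 arrays, and CDH5 and DCN, on 1 each. The arrays lie on 5 slides. SM30 replicate A shared a slide with the 3 SM30 controls, replicates B and C lay on another, SM30 control A was scanned apart from the rest of its slide, and no AS30 3 h array shared a slide with its controls.

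NF-kB dimers are held in the cytoplasm by IkB proteins until an upstream kinase marks the inhibitor for degradation, and the freed dimer then enters the nucleus and switches on inflammatory and survival genes. Among its targets are its own subunits and inhibitors, so that a stimulus is followed by a loop of new IkB and A20 that ends the signal. In lung epithelium the pathway is known for driving the release of chemokines and cytokines after injury and infection. A second, non-canonical branch runs through NIK, the product of MAP3K14, which BIRC3 and partner proteins keep at a low level.

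Promoter sequences were read for the DNA element that NF-kB dimers bind. RefSeq windows of 250 bases before a transcription start (GRCh38.p14) were at hand for 8 of the 10 genes, and both strands were searched for the kappa-B consensus. A match was found for 6 of the 8 genes, namely NFKB1, NFKB2, NFKBIA, TNFAIP3, TNIP1 and BIRC3, and in no window of MAP3K14 or BCL3. Of all 27303 genes with a window, 6.28% had a match. RELB and NFKBIE have no entry. The windows below belong to genes whose probes passed a test against controls, written 5′ to 3′ along the gene with the matches in capitals.
TNFAIP3 (chr6:137867009-137867258, plus strand): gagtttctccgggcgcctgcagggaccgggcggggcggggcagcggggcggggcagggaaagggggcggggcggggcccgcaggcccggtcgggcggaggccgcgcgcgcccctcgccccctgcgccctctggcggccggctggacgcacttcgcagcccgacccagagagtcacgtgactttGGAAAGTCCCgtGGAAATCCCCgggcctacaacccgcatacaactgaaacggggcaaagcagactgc
TNIP1 (chr5:151081035-151081284, minus strand): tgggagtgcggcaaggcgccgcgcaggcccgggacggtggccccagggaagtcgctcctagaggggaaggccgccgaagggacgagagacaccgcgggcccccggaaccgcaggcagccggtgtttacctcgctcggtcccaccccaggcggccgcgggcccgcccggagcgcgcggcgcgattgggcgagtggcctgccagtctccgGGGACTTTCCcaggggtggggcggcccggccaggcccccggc
MAP3K14 (chr17:45317021-45317270, minus strand): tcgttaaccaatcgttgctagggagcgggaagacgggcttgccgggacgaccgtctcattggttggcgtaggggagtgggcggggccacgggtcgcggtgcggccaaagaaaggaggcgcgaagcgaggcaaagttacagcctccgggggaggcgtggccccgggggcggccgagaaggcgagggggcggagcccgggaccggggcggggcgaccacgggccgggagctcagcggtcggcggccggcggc
NFKB1 (chr4:102501109-102501358, plus strand): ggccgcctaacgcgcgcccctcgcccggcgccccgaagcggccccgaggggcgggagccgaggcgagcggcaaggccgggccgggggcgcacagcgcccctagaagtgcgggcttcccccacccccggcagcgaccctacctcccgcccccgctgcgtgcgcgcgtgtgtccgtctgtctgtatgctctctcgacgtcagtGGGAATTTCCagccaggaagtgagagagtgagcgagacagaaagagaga
The TNFAIP3 window holds 2 matches on the minus strand, 46 to 55 and 58 to 67 bases before the start, and 0.635% of all 35114 windows hold 2 or more. The single match lay 33 to 42 bases before the start in TNIP1 and 40 to 49 bases before it in NFKB1. A further window each of TNIP1 and NFKB1, from another start, had none. The matches describe letters in the reference and say nothing of binding in these cells.

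At 3 h, 5 of these genes were called after SM30 NPs, a number that moved with the alternatives given below. Relative to the SM30 controls, TNFAIP3, TNIP1, RELB and NFKB1 rose and MAP3K14 fell, by 7 of the 12 probes, 6 higher and 1 lower. Over all 28664 probes tested in this comparison, 7.49% were called, 4.35% higher and 3.13% lower. The median log2 change of the 12 probes was 0.69, against -0.05 over all probes. Of the 11 probes measured on all 6 arrays, 9 lay higher and 1 lower in every SM30 array than in every control, while 43% of all 27420 probes did not overlap between these groups (19.2% higher, 23.8% lower). In RNA from whole cultures, a change in every cell and a change in the share of responding cells cannot be told apart, nor can fewer cells and less RNA per cell.

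**Figure D1:**
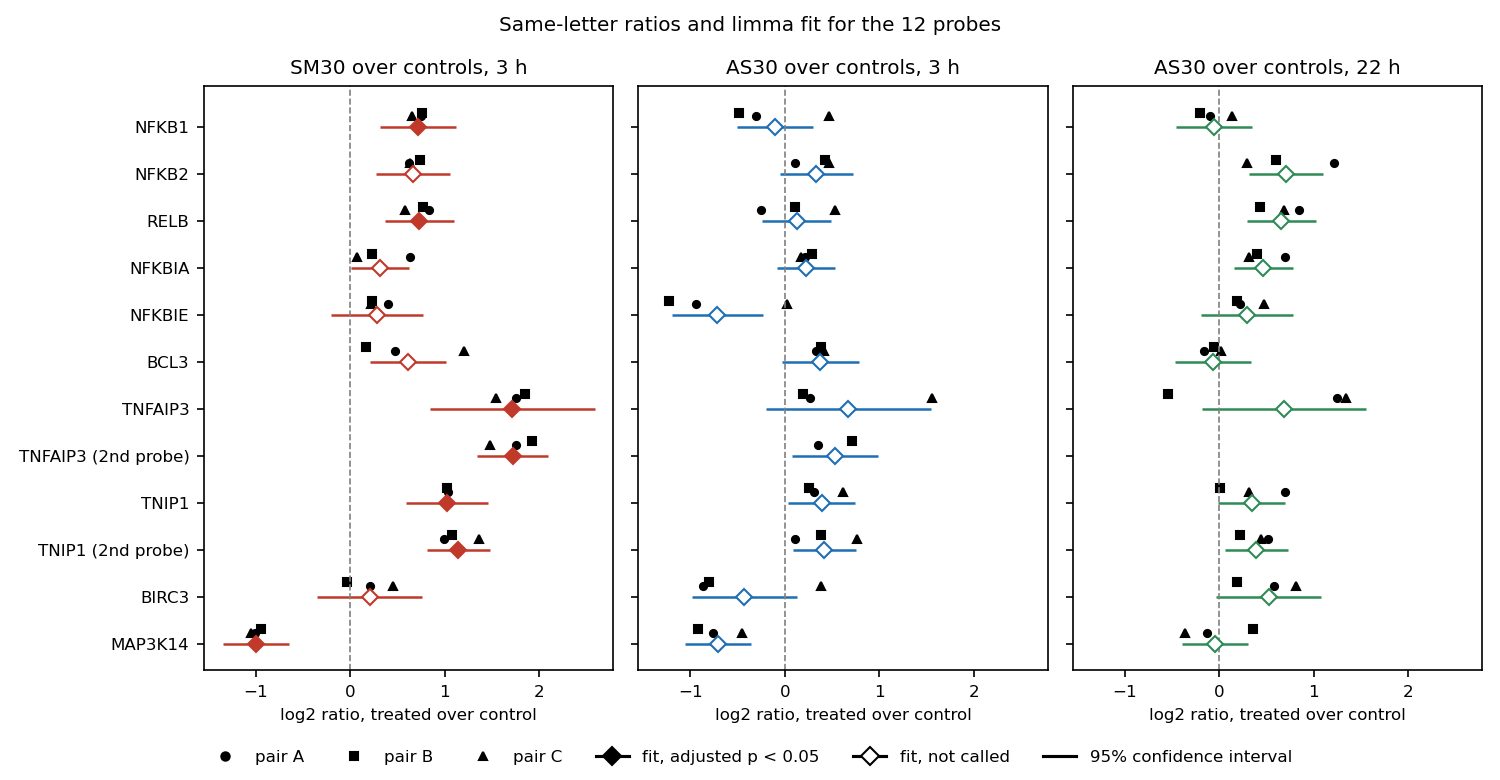
Log2 ratio of treated over control for the 12 probes in the 3 comparisons (x axis, log2 ratio; rows, probes). Small symbols are the ratios of replicates A, B and C, diamonds the limma estimates with 95% confidence intervals, filled where the adjusted p was under 0.05. The 3 SM30 ratios lie close together for MAP3K14 (-1.05 to -0.95) and on 1 side of 0 for all probes but BIRC3, whereas the AS30 3 h ratio of pair C lies apart from A and B for NFKB1, NFKBIE, TNFAIP3 and BIRC3.

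NFKB1 encodes the precursor of the p50 subunit of the canonical dimer, and its probe (chr4:103756902-103756961, hg18) is printed on 10 spots of the array. Its log2 signal was 11.39, 11.31 and 11.42 in the SM30 controls A, B and C and 12.13, 12.06 and 12.08 in the SM30 arrays. The groups were separate and each kept within a narrow band. The log2 change was 0.72 ± 0.18 (SE, n = 3 pairs), 1.65-fold, with a limma adjusted p of 0.0457. Here and below, the SE rests on a spread estimated over all ratios of the probe, AS30 pairs included. It is not the spread of the SM30 pairs alone. RELB, the transactivating subunit of the non-canonical dimer (chr19:50233225-50233284, hg18), stood at 14.13, 14.21 and 14.36 in the controls and at 14.97, 14.98 and 14.94 after SM30 NPs. It rose by 0.73 ± 0.16 (SE, n = 3 pairs; adjusted p = 0.0316). NFKB2, which encodes the precursor of p52, the partner of RELB (chr10:104151043-104151219, hg18), is also printed on 10 spots. Its log2 signal was 8.05, 8.16 and 8.17 in the controls against 8.67, 8.90 and 8.79, again without overlap, and its difference of 0.66 ± 0.17 missed the threshold (adjusted p = 0.0517).

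None of the 3 IkB family genes passed the test after SM30 NPs. NFKBIA encodes IkB alpha, the fastest of the resynthesised inhibitors (chr14:34940539-34940598, hg18). Its log2 signal was 14.52, 14.85 and 15.04 in the controls and 15.15, 15.08 and 15.11 after SM30 NPs. The SM30 arrays were just above the highest control, with a log2 difference of 0.31 ± 0.14 (adjusted p = 0.196). NFKBIE, which encodes IkB epsilon (chr6:44334536-44334595, hg18), stood at 11.55, 11.64 and 11.67 against 11.95, 11.87 and 11.89, a difference of 0.28 ± 0.21 (adjusted p = 0.444). BCL3, a nuclear IkB family member that binds p50 and p52 homodimers (chr19:49955031-49955090, hg18), stood at 13.78, 13.86 and 13.10 in the controls and at 14.25, 14.02 and 14.30 after SM30 NPs. Control C was lower than the other controls, and the difference was 0.61 ± 0.18 (adjusted p = 0.0739).

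The A20 genes had the largest rises of the 10 after SM30 NPs. TNFAIP3 encodes A20, a ubiquitin-editing enzyme that ends signalling upstream of the IkB kinase. The log2 signal of its leading probe (chr6:138245372-138245431, hg18) was 7.17, 6.98 and 7.29 in the SM30 controls and 8.92, 8.83 and 8.83 in the SM30 arrays, far apart with little spread. The log2 change was 1.71 ± 0.38 (SE, n = 3 pairs), 3.28-fold (adjusted p = 0.0331). In pairs A, B and C the SM30 ratios were 1.75, 1.85 and 1.54, and the SE also holds the wider scatter of the AS30 ratios. The second probe (chr6:138243003-138243062, hg18) rose by 1.72 ± 0.15 (adjusted p = 0.00567), but none of the 3 controls was well above background there, so that its rise was at least 1.96-fold, a limit that takes, for each control array, the dimmest signal still well above background there (or the signal of the probe itself, if brighter). TNIP1 encodes ABIN1, the adaptor that brings A20 to ubiquitinated targets. Its leading probe (chr5:150389959-150390018, hg18) read 12.24 and 12.23 in controls A and B and 13.28, 13.25 and 13.22 after SM30 NPs, the spot of control C having been dropped as an outlier by the scanner software. The log2 change over these 2 pairs was 1.03 ± 0.19 (adjusted p = 0.0215), and 1.45 over 3 pairs with that spot kept. The second TNIP1 probe was measured everywhere and read 8.42, 8.50 and 8.01 in the controls against 9.42, 9.58 and 9.37, a rise of 1.14 ± 0.15 (adjusted p = 0.00507).

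The last pair of genes meets in the non-canonical branch. BIRC3 encodes cIAP2, a ubiquitin ligase of the TNF receptor complex (chr11:101713566-101713625, hg18). Its log2 signal of 13.36, 13.49 and 13.06 in the controls overlapped 13.56, 13.45 and 13.52 after SM30 NPs, with a difference of 0.21 ± 0.24 (adjusted p = 0.645). MAP3K14 (chr17:40696492-40696551, hg18), the only member called lower, stood at 11.96, 12.01 and 12.01 in the controls and at 10.95, 11.06 and 10.97 in the SM30 arrays. It fell by 1.00 ± 0.15 on the log2 scale (SE, n = 3 pairs; adjusted p = 0.00878), to 0.499 of the control level, and every SM30 array was below every control.

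**Figure D2:**
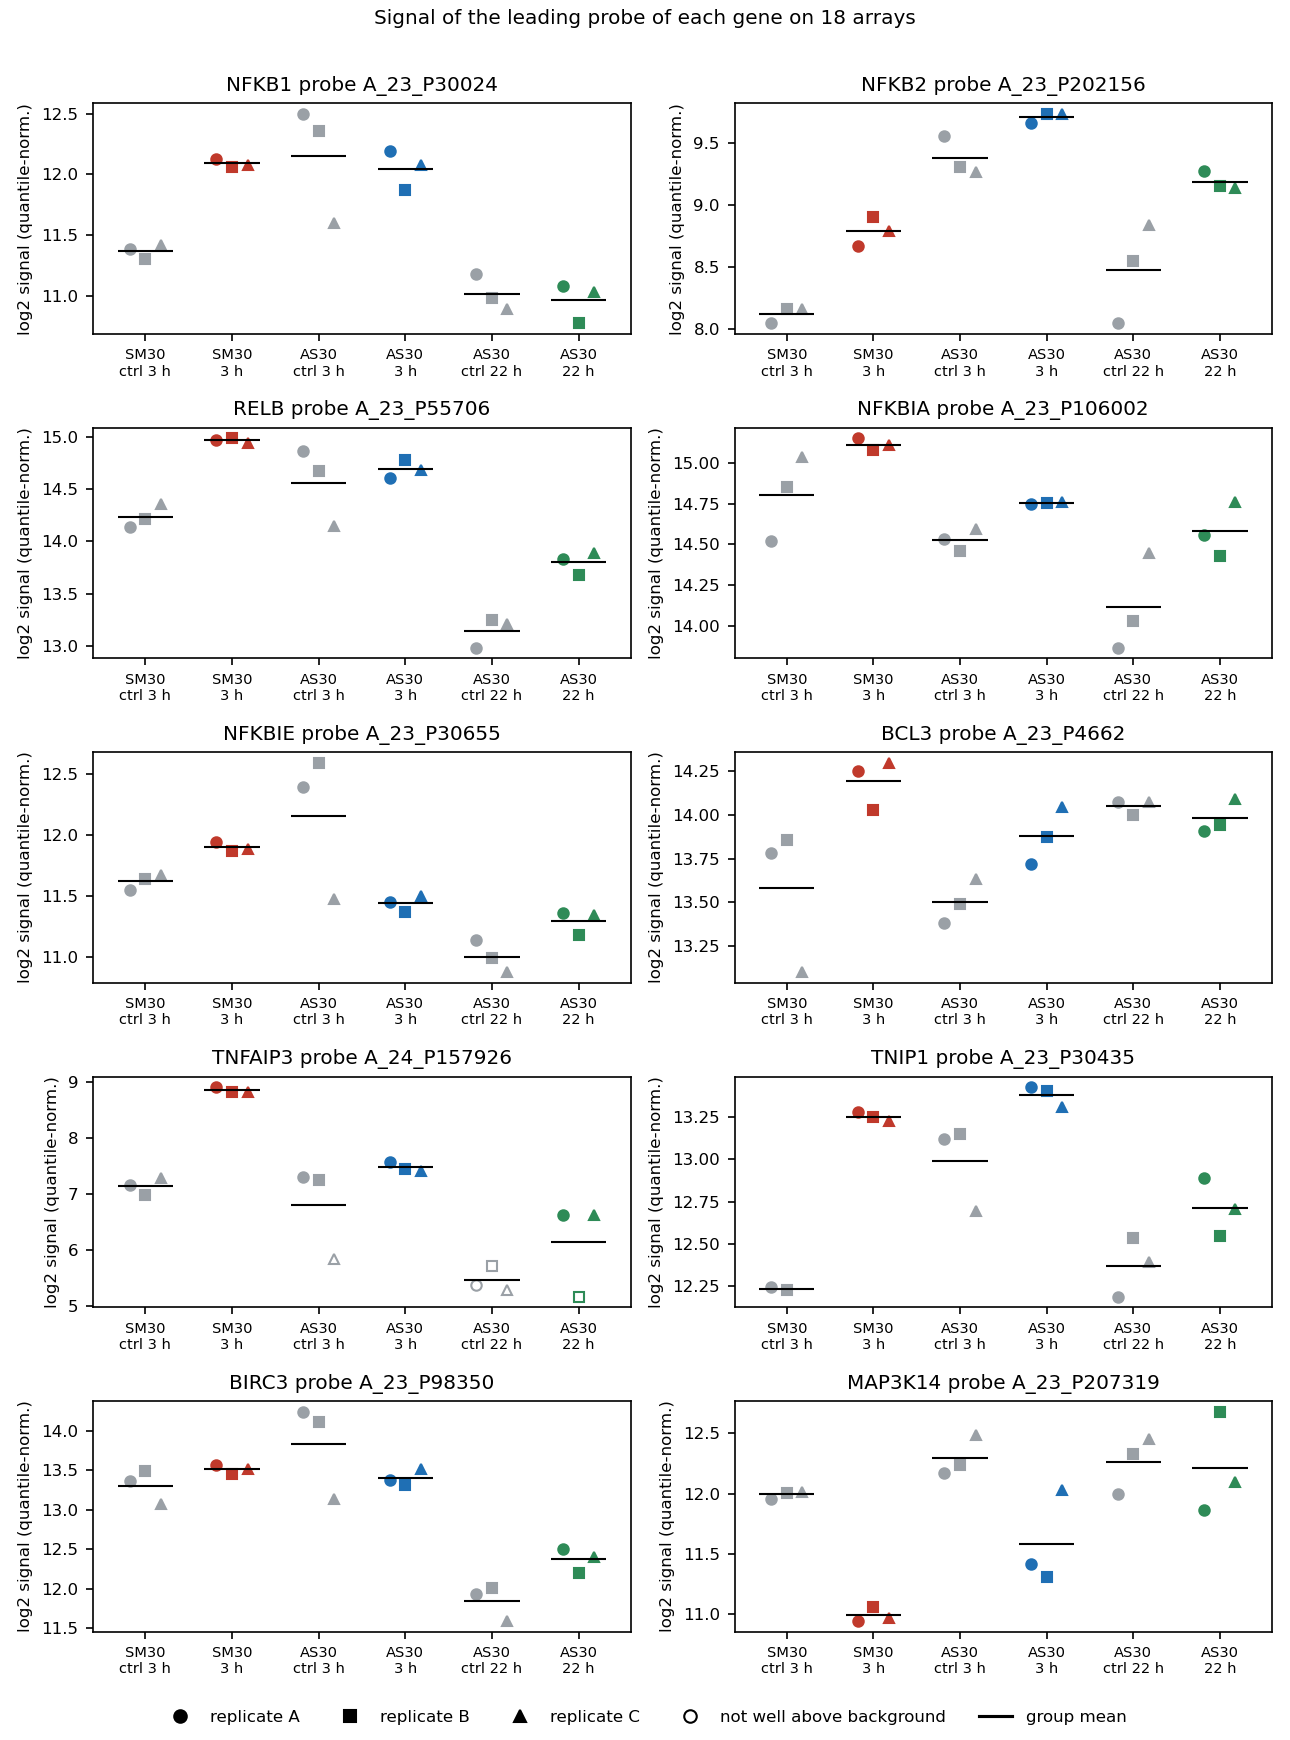
Quantile-normalized log2 signal (y axis, a scale of its own in each panel) of the leading probe of each gene on the 18 arrays, by group (x axis). Symbols give the replicate letter, open symbols spots not well above background, and lines group means. Every SM30 array stands above every SM30 control drawn for all genes but BIRC3, which overlaps, and MAP3K14, which is lower. AS30 3 h control C lies below controls A and B for NFKB1, RELB, NFKBIE, TNFAIP3, TNIP1 and BIRC3, and narrowly for NFKB2.

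The SM30 result was read within a slide as well. On the slide that held SM30 A and the 3 controls, SM30 A differed from the mean of the controls by 0.76 for NFKB1, 0.73 for RELB, 1.77 for TNFAIP3, 1.11 for the second TNIP1 probe and -1.05 for MAP3K14. The mean of SM30 B and C, on the other slide, differed from the same controls by 0.70, 0.73, 1.69, 1.16 and -0.98. The values of both slides lie close together. With slide as a fixed block, however, only 2 probes, 1 of TNIP1 and 1 of TNFAIP3, remained under the threshold, beside 1.17% of all probes. Leaving out pair A, B or C of SM30 left 2, 1 and 2 called probes, with 2 pairs in that class. Of all probes 1.98%, 1.01% and 1.04% were then called.

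After AS30 NPs at 3 h none of the 12 probes was called by limma, while 2.52% of 28596 probes were (1.5% higher, 1.01% lower). An unadjusted p under 0.05 was found for 5 of the 12 and for 24.4% of all probes. MAP3K14 came closest. Its log2 signal was 12.17, 12.23 and 12.49 in the AS30 3 h controls and 11.42, 11.31 and 12.03 in the AS30 arrays, all of them below the controls, a difference of -0.71 ± 0.15 (adjusted p = 0.0523). It was called without replicate B of AS30 22 h, among probes well above background on all arrays, and with slide as a random block. NFKBIE read 12.39, 12.59 and 11.48 in the controls and 11.45, 11.37 and 11.50 after AS30 NPs, a difference of -0.72 ± 0.21 (adjusted p = 0.1). The AS30 arrays sat together at the level of control C, far below controls A and B. The A20 genes did not pass either. TNFAIP3 read 7.31, 7.26 and 5.85 in the controls, the last not well above background, and 7.58, 7.45 and 7.41 after AS30 NPs, and its difference of 0.67 ± 0.38 (adjusted p = 0.305) averaged ratios of 0.26, 0.20 and 1.56 in pairs A, B and C. The 2 TNIP1 probes differed by 0.39 ± 0.15 and 0.42 ± 0.15 (adjusted p = 0.175 and 0.139). Of the 11 probes measured on all 6 arrays, 5 lay higher and 1 lower without overlap, against 13.2% and 10.6% of all probes, 23.8% in all.

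Control C of this group stood apart. It lay below the mean of controls A and B by a log2 difference of -0.82 for NFKB1, -0.62 for RELB, -1.02 for NFKBIE, -1.44 for TNFAIP3 and -1.04 for BIRC3, and 52.4% of its spots were well above background against 61.7% and 61.9%. Its part in the result was not tested. BIRC3 read 14.24, 14.11 and 13.14 in the controls and 13.38, 13.31 and 13.52 after AS30 NPs, and the ratios of -0.86, -0.80 and 0.38 changed sign at pair C. Without pair C, MAP3K14, NFKBIE and BIRC3 were called lower and no member higher, and 10.7% of all probes were called. Slide and treatment cannot be told apart in this comparison, except through AS30 22 h controls that shared a slide with either side.

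After AS30 NPs at 22 h none of the 11 measured probes was called by limma, while 3.58% of 28155 probes were (2.54% higher, 1.04% lower). An unadjusted p under 0.05 was found for 4 of the 11 and for 22.9% of all probes. The 2 non-canonical subunits came nearest. NFKB2 read 8.05, 8.55 and 8.84 in the AS30 22 h controls and 9.27, 9.15 and 9.14 after AS30 NPs. The groups did not overlap, and the difference was 0.71 ± 0.17 (adjusted p = 0.0583). RELB read 12.98, 13.25 and 13.21 against 13.83, 13.68 and 13.89, also without overlap, a difference of 0.66 ± 0.16 (adjusted p = 0.0602). Without the replicate block, that is with the 18 arrays as 6 groups, both were called. On the slide that held the 3 AS30 22 h arrays and control C, NFKB2 differed by 0.35 and RELB by 0.60. NFKBIA differed by 0.47 ± 0.14 (adjusted p = 0.0918) and BIRC3 by 0.53 ± 0.24 (adjusted p = 0.241), while NFKB1, BCL3 and MAP3K14 differed by -0.06, -0.07 and -0.05. TNFAIP3 was not well above background in any 22 h control, where it read 5.38, 5.71 and 5.29, and it read 6.62, 5.17 and 6.64 after AS30 NPs. Array B was not well above background either and lay below every control, so no direction is given (adjusted p = 0.324). Of the 11 probes, 6 lay higher in every AS30 array than in every control and none lower, against 12.8% and 11.1% of all probes and 23.9% in both directions.

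The responses were then set against each other, as the design asks whether particle size or recovery time changes them. For SM30 minus AS30 at 3 h no member was called by limma, against 0.014% of 28595 probes. An unadjusted p under 0.05 was found for 6 of the 12 and for 14.6% of all probes. The log2 difference was 0.83 for NFKB1 (95% confidence interval 0.25 to 1.40, adjusted p = 0.25). It was 1.00 for NFKBIE (0.32 to 1.68, adjusted p = 0.248) and 0.60 for RELB (0.09 to 1.12). For TNFAIP3 it was 1.04 with the leading probe (-0.19 to 2.27) and 1.19 with the second (0.59 to 1.78). No control of either set was well above background for that second probe. The difference was -0.29 for MAP3K14 (-0.79 to 0.20) and 0.08 for NFKBIA (-0.35 to 0.52). The intervals are wide, so these data show neither a different nor a like response of the genes to the 2 particles. For AS30 at 22 h minus 3 h no member was called by limma, against 0.0285% of 28086 probes, and 4 of 11 had an unadjusted p under 0.05, against 16.9% of all probes. NFKBIE differed by 1.01 (0.33 to 1.69; adjusted p = 0.18), BIRC3 by 0.95 (0.17 to 1.74; adjusted p = 0.23) and MAP3K14 by 0.66 (0.17 to 1.16; adjusted p = 0.207). Without pair C of AS30 3 h, NFKBIE was called, and so were 0.9% of all 28012 probes.

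**Figure D3:**
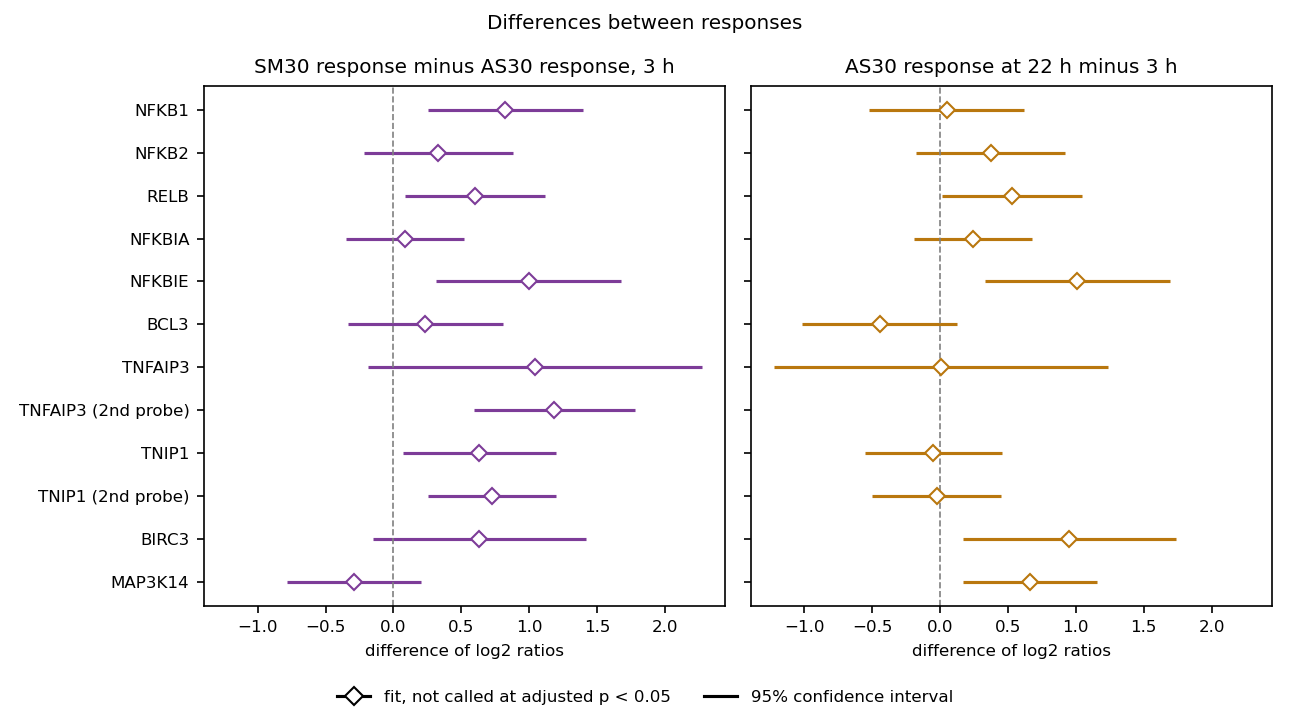
Difference between responses on the log2 scale (x axis) for the 12 probes (rows), SM30 minus AS30 at 3 h on the left and AS30 at 22 h minus 3 h on the right. Diamonds are limma estimates and lines 95% confidence intervals. All diamonds are open, since no adjusted p was under 0.05, and the interval of NFKBIE excludes 0 in both panels.

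The controls also differed among themselves. Between the AS30 controls at 3 h and at 22 h, 9 of the 11 probes measured on all 6 arrays were lower at 22 h without overlap, 1 was higher and 1 overlapped, while 6.07% of all 24118 probes were lower and 7.95% higher in this way. The log2 difference was -1.99 for BIRC3, -1.41 for RELB, -1.35 for TNFAIP3, -1.15 for NFKBIE and -1.13 for NFKB1, and -0.41 for NFKBIA. For TNFAIP3 the readings of 3 h control C (5.85) and of every 22 h control (5.71 at most) were not well above background. The size of its difference is therefore not settled. BCL3 was higher by 0.55 and MAP3K14 overlapped. Control A at 22 h lay on the same slide as the 3 h controls, and within that slide it differed from their mean by -1.90 for BIRC3, -1.58 for RELB, -1.43 for TNFAIP3 and -0.97 for NFKB1. These are levels with no test, and the comparison was added after the values were seen. The 2 sets of 3 h controls, which had the same handling by the labels, also differed. In the SM30 set 4 of 10 probes were lower without overlap and none higher, against 18.9% and 26.2% of all 24797 probes, with log2 differences of -1.25 for NFKB2, -0.78 for NFKB1, -1.44 for the second TNIP1 probe and -0.30 for MAP3K14. The mean NFKB1 signal of 12.09 after SM30 NPs lay at the level of the 12.15 of the AS30 3 h controls. The sets shared no slide.

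Other genes of the pathway were read from a list of 30, among them the remaining subunits, the IkB kinases, TRAF and TAB adaptors and deubiquitinases, all of them measured. After SM30 NPs the list median log2 change was 0.19. While 4.35% of all probes were called higher and 3.13% lower, 5 of the 30 rose and none fell. They were TRAF1, an adaptor that binds cIAP proteins (2.23 ± 0.13; adjusted p = 0.000295), NFKBIZ, a nuclear IkB protein (1.37 ± 0.22), XIAP, a caspase inhibitor (1.14), NFKBIB, which encodes IkB beta (0.61), and CYLD, a deubiquitinase that restrains the pathway (0.53). Of these, CYLD is named because only 5 were called. The other CYLD probe did not pass (0.56; adjusted p = 0.065), nor did 1 of 3 NFKBIB probes. After AS30 NPs at 3 h TRAF1 alone was called (0.88; adjusted p = 0.0187), by its leading probe and not by the other (0.65; adjusted p = 0.172). This 1 call among 30 genes is close to the 2.52% of all probes called there. The list median was 0.04. At 22 h none was called (median 0.11), against 3.58% of all probes.

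Target genes outside the loop, chemokines, cytokines, adhesion and survival genes, formed a list of 22, of which 21 were measured. After SM30 NPs 8 rose and 1 fell, and the median log2 change was 0.94. Among the genes called, the largest rises were those of CCL20, a chemokine for dendritic cells and lymphocytes (3.25), ICAM1, an adhesion molecule (2.39), SOD2, the mitochondrial superoxide dismutase (1.93), and TNF (1.81). Only 1 of the 3 SM30 controls was well above background for TNF, and its second probe differed by 0.06 (adjusted p = 0.86). BCL2L1, which encodes Bcl-xL, fell by 0.63 with its leading probe, and its other probe did not pass (-0.42; adjusted p = 0.163). After AS30 NPs at 3 h CCL20 (1.95), SOD2 (1.47) and PLAU (0.97), the urokinase gene, rose and BCL2L1 fell by 0.78 (other probe -0.41; adjusted p = 0.18), with a list median of 0.43. At 22 h 19 genes could be tested, SOD2 (1.58) and CFLAR (0.67), an inhibitor of caspase activation, rose and none fell, with a median of 0.13. The other CFLAR probe did not pass (0.73; adjusted p = 0.0516). BCL2A1 was not counted at 3 h, as its leading probe was not called. Its other probe, however, rose by 1.43 after SM30 NPs (limma adjusted p = 0.00115). After AS30 NPs at 3 h that probe rose by 1.58 (adjusted p = 0.00398). The median changes over all probes were -0.05, 0.01 and -0.0047 in the 3 comparisons. The shares of all probes called higher were 4.35%, 1.5% and 2.54%, and those called lower 3.13%, 1.01% and 1.04%.

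**Figure D4:**
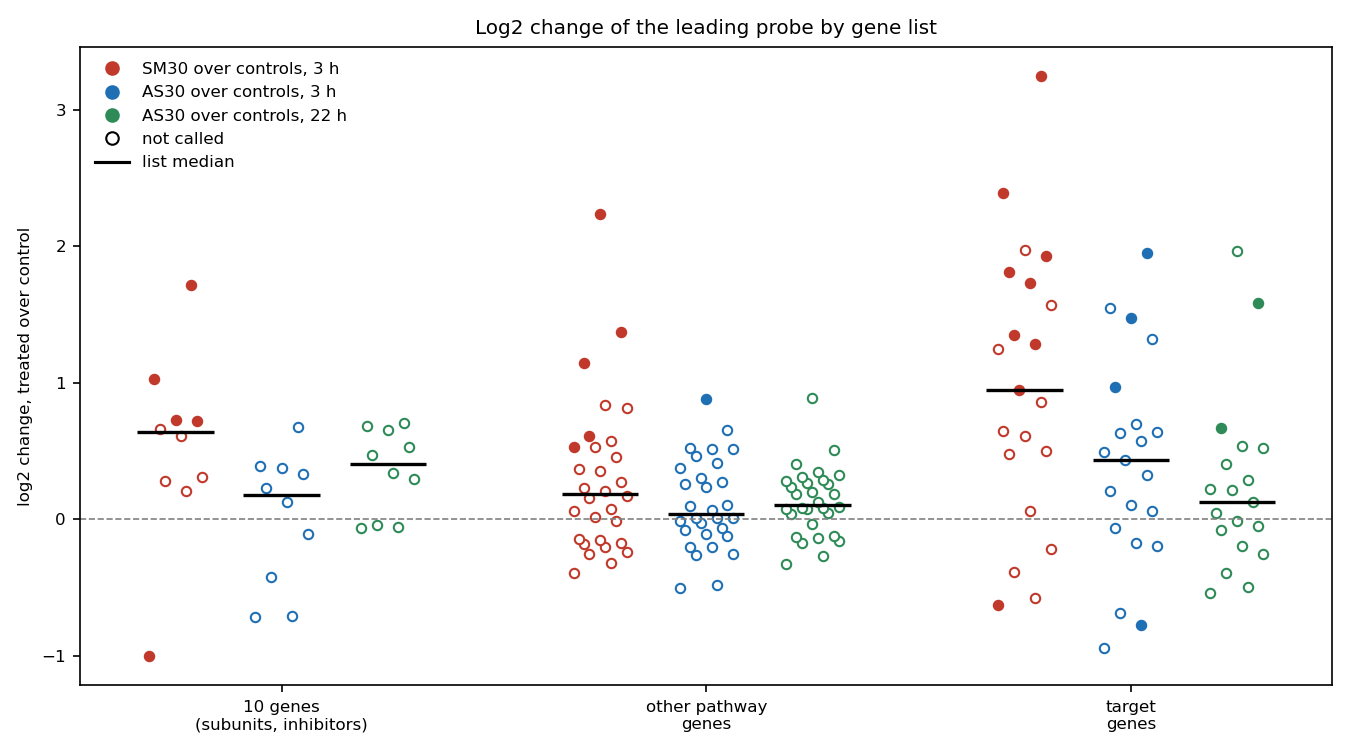
Log2 change against controls (y axis) of the leading probe of each gene in the 3 comparisons, for the 10 genes, the list of other pathway genes and the list of target genes (x axis). Filled points were called at an adjusted p under 0.05, and lines are list medians. The SM30 medians are 0.64, 0.19 and 0.94, above those of AS30 at 3 h (0.18, 0.04 and 0.43).

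The 9 ratios were last used to describe how the genes varied together. For 9 of the 10 genes, TNIP1 left out for its missing spot, all 9 ratios were measured, and the mean of their standardised ratios correlated most with RELB (r = 0.963) and NFKBIE (0.921) and hardly with MAP3K14 (0.113) or BCL3 (-0.02). Each of these genes is itself part of that mean, which raises its r. Among 17184 other genes the most alike included ATP6V1A (0.954), ZNF609 (0.919), an uncharacterised cDNA (0.918) and FBXL12 (0.915). The ratios share arrays, slides and normalization, and these correlations are descriptions.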

How the data were processed

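RNA of 18 A549 cultures was hybridised to one-colour Agilent arrays. For every array the authors deposited the output of Agilent Feature Extraction (10.5.1.1 per the file headers), with spot intensities on a linear scale, already background-corrected in the processed signal, and spot flags. The authors' own quantile-normalized values, also deposited as linear intensities, served as an alternative.

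From the scanner files, log2 of the processed signal of non-control spots was quantile-normalized, spots failing the positive and significant flag became missing, outlier-flagged spots were dropped, replicate spots were averaged, and probes missing in more than 33% of arrays were left out (28665 of 41000 kept). All log2 values were computed here from the intensities deposited by the authors. Treated and control arrays of one letter were taken as a pair, as the methods name a corresponding control, and the 9 ratios were fitted as 3 classes with 6 residual degrees of freedom by limma 3.58.1 (lmFit, eBayes) in R 4.3.3, with statmod 1.5.0 for the slide block. Benjamini-Hochberg adjustment ran over every probe of a comparison (threshold 0.05), and the fit was tested on simulated data. The number of arrays limits the precision.

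The 10 genes and the gene lists were chosen with earlier results of these data known. All 10 were named. From each list, at most 4 genes called in each direction were named, by size, and CYLD was added after its values were seen. Probe positions are those of the scanner files (hg18), promoter windows come from RefSeq (GRCh38.p14), and the builds were not mixed. For 18772 kept probes the symbol came from the accession through RefSeq gene names. Alternatives were another scaling (75th percentile), normexp background correction with an offset of 50, other filters, outlier spots kept, the deposited table, no replicate block, slide as a block, and each pair left out. A marker and a gene of similar pattern are not reported here.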

Additional observations from a re-analysis of the deposited data

How the results depend on the processing

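With letters pairing the samples, same-letter deviations from the group means correlated between -0.09 and 0.48, over 0.1 in all 3 pairs of AS30 22 h, in 1 of AS30 3 h and in none of SM30, which does not settle whether a letter marks cultures grown together. Without the replicate block the SM30 count went from 7 to 9 of 12 probes, the AS30 22 h count from 0 to 2 (NFKB2 and RELB) and the AS30 3 h count stayed at 0. Over all probes 8.78%, 4.99% and 4.59% were called in these comparisons. After SM30 NPs 4 probes were called with no filter on dim spots, 2 with slide as a fixed block and 1 to 7 with a pair left out. The shares of all probes were 3.15%, 1.17% and 1.01% to 9.49%. After AS30 NPs at 3 h 1 was called among probes well above background on all arrays, 3 with slide as a random block and 0 to 3 with a pair left out. The shares of all probes were 4.6%, 13.8% and 0.285% to 10.7%. At 22 h 1 was called with normexp, 2 with the filter on all arrays, 2 with slide as a random block and 0 to 1 with a pair left out. There the shares of all probes were 4.04%, 5.99%, 6.84% and 0.00716% to 4.84%. For the difference between times 0 to 1 was called with a pair left out, and for that between particles 0 under every alternative run. Of all probes, 0% to 0.9% and 0% to 0.213% were then called. Of the SM30 calls, TNIP1 held under 15 of 18 alternatives, MAP3K14 under 14, RELB under 13, TNFAIP3 under 12 of 17 and NFKB1 under 9. The cause was not tested.

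Alternatives for the lists were chosen after seeing the data. The share of all probes called moved with them, after SM30 NPs from 1.17% with the fixed to 10.7% with the random slide block. After AS30 NPs at 3 h these shares were 0.43% and 13.8%. Pathway genes called after SM30 NPs numbered 1 with slide as a fixed block, 8 with slide as a random block and 1 to 6 with a pair left out; after AS30 NPs at 3 h they numbered 3 without the replicate block, 0 with the fixed and 7 with the random slide block and 0 to 2 with a pair left out; at 22 h normexp gave 1. Between particles 1 was called without the replicate block and 1 with the random slide block, where 0.0489% and 0.213% of all probes were. Target genes called after SM30 NPs numbered 5 with no dim filter, 1 with the fixed and 14 with the random slide block, and 3 to 12 with a pair left out. After AS30 NPs at 3 h they numbered 1, 1, 7 and 0 to 5 under the same alternatives. With no dim filter 0.668% of all probes were called there. At 22 h 75th percentile scaling, no dim filter and the fixed slide block gave 1 each, and leaving out a pair 0 to 3. Of all probes, 3.16%, 1.24%, 1.15% and 0.00716% to 4.84% were called in these runs. BCL2L1 was called under 4 of 18 alternatives after SM30 NPs and 6 after AS30 NPs at 3 h, and CFLAR under 6 at 22 h. Under 75th percentile scaling, normexp and the deposited table, 8 member probes each were lower in the 22 h controls than in the 3 h controls of AS30, and 3, 4 and 5 in the SM30 controls than in the AS30 controls.

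Signs turned only for differences that were not called. With slide as a fixed block, the AS30 3 h difference became 0.092 for NFKB1, -0.16 for NFKB2 and -0.14 for RELB, the 22 h difference 0.067 for NFKB1, and that between times -0.024 for NFKB1 and 0.27 for TNIP1. With slide as a random block that of TNFAIP3 between times became -0.033, with normexp -0.055 and with the deposited table -0.025. With 75th percentile scaling NFKBIA became -0.11 between particles and -0.017 between times, and NFKB1 -0.0088 between times. With a pair left out, the AS30 3 h difference ran from -0.39 to 0.084 for NFKB1 and from -0.075 to 0.32 for RELB, that at 22 h from -0.16 to 0.019 for NFKB1 and from -0.25 to 0.11 for MAP3K14, that between particles from -0.076 to 0.20 for NFKBIA and from -0.059 to 0.46 for BCL3, and that between times from -0.14 to 0.34 for NFKB1, from -0.32 to 0.62 for TNFAIP3 and from -0.23 to 0.11 for TNIP1.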
